A study of Homo sapiens with 6 samples.

Results

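The genes described here are the protein-coding genes of human chromosome 6, read in the order of their start positions on the GRCh38 build. Genes were selected on a mean level over 6 RNA libraries of at least 5 CPM, a normalised read count in which a gene's count is divided by the total count of its library and scaled up. They were then ordered by position, and the block pattern along that order, which drew attention to the chromosome, is a pattern in the ratio of overexpressing to control levels of these same libraries. That rule took 523 of the 1039 coding genes of the chromosome in a table of 61806 genes. The libraries came from NB4, a cell line established from acute promyelocytic leukaemia, in which CD69 was overexpressed after lentiviral transduction (3 libraries, overexpressing replicates 1 to 3) or was not (3 libraries, control replicates 1 to 3). CD69 encodes a C-type lectin that leukocytes carry on their surface soon after activation. The control libraries carry the genotype label Wild-type, while the design text names them vector control cells. All cells were grown in the same RPMI medium with serum, without drug, and were collected in log phase, and the labels put all 6 in 1 batch. The design text calls the libraries biological replicates, but no source states separate transductions, and each group may be 1 transduced population.

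Chromosome 6 carries the major histocompatibility complex on its short arm, with the class I genes that present peptides to cytotoxic T cells, the class II genes that present them to helper T cells and, between them, the class III genes of complement and inflammation. The same arm holds the largest histone cluster of the genome and several signalling and stress genes, among them CCND3, PIM1 and FKBP5. The long arm holds the blood cell regulator MYB and the tumour suppressor candidates FOXO3 and HACE1. The RNA level of a gene depends on its own promoter and on how many copies of its part of the chromosome a cell carries. DNA was not measured in these samples, and its part in the results was not tested.

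The level of CD69 itself was 80.3, 81.8 and 70.5 CPM in controls and 98.2, 99.0 and 95.7 CPM after overexpression. Its log2 fold change was 0.33 with an SE of 0.07, and the adjusted p from the quasi-likelihood test in edgeR was 0.0153. A p-value here measures spread between these 6 libraries and no more. Total counts per library lay between 51543550 and 57463020, and scaling factors between 0.976 and 1.01. Of 8 promyelocyte markers, 7 lay at 1 CPM or more in every library, and the 8 together summed to 1206 to 1481 CPM in controls and 2204 to 2600 CPM in the overexpressing libraries. Most of this rise lay in PRTN3, ELANE and AZU1, which like CD33 lay above all controls in every overexpressing library. CTSG and CEBPE overlapped between groups, and CSF3R was lower after overexpression (197 to 217 CPM in controls, 172 to 186 CPM after). MPO, the myeloperoxidase of the granules and the eighth marker, was nearly absent at 0.517 to 1.44 CPM. The 12 B lineage markers summed to 28.8, 26.1 and 20.8 CPM in controls and to 29.9, 115 and 113 CPM in overexpressing replicates 1, 2 and 3, with 0 markers at 0 in all libraries. The 6 fibroblast and epithelial markers summed to 102 to 115 CPM in controls and to 106, 34.5 and 25.6 CPM in overexpressing replicates 1, 2 and 3. The T and NK cell markers summed to 55.1 to 74.5 CPM in controls and 100.5 to 119.9 CPM in the overexpressing libraries, nearly all of it NKG7, with CD3E and CD3G at 0 in every library. Erythroid markers summed to at most 0.785 CPM. The part of these markers in the results was not tested, and in bulk RNA fewer cells of a type and less RNA per cell cannot be told apart. Overexpressing replicate 1 thus stood apart from replicates 2 and 3, and values are given per library for that reason.

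A few of the genes that differed from their surroundings are shown first by the sequence just upstream of their RefSeq start, which can differ from the gene spans used for the counts. Sequences are from RefSeq on GRCh38.p14, 250 bases long and written 5′ to 3′ on the gene's own strand, with every CG dinucleotide in capitals. CG is the site of DNA methylation in human cells and reads the same on both strands, and a match here is a description of letters only. The first is FKBP5 (chr6:35728584-35728833, minus strand), the gene with the highest ratio on the chromosome at the pseudocount used (at 0.1 CPM the ratio of TMEM170B, 3.78, is higher). GLO1 (chr6:38703146-38703395, minus strand) and MDGA1 (chr6:37697884-37698133, minus strand) lie 0.977 Mb apart and had ratios of opposite sign, and the window of MDGA1 lies inside its gene span. JARID2 (chr6:15245819-15246068, plus strand) and TMEM170B (chr6:11537499-11537748, plus strand) lie where the surrounding genes had ratios near 0. MICAL1 (chr6:109465969-109466218, minus strand) lies among genes that were lower, and its window falls inside the gene ZBTB24.
FKBP5: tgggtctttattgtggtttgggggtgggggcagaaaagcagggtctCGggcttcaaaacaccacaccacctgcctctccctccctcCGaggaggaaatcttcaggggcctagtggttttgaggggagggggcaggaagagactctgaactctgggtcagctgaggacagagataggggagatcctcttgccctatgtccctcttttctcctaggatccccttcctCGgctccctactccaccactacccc
GLO1: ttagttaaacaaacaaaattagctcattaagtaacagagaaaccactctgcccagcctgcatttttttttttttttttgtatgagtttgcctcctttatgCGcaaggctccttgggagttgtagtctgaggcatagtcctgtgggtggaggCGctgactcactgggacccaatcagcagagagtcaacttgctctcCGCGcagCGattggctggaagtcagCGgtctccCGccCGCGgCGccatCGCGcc
MDGA1: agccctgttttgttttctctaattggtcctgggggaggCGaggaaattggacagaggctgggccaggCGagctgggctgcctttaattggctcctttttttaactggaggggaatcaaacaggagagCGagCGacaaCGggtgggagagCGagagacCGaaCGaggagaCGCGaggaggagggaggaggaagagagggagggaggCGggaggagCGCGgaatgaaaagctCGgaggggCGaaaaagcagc
JARID2: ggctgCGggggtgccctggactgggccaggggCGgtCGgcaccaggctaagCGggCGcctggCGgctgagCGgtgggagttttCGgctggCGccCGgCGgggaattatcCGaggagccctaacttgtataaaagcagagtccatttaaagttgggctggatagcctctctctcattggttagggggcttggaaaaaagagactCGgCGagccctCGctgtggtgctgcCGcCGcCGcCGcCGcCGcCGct
TMEM170B: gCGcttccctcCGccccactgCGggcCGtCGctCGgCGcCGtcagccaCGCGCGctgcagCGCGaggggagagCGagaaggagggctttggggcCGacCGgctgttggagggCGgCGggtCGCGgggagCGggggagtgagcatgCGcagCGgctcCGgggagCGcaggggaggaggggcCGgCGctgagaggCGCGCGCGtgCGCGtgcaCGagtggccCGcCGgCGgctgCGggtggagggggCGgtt
MICAL1: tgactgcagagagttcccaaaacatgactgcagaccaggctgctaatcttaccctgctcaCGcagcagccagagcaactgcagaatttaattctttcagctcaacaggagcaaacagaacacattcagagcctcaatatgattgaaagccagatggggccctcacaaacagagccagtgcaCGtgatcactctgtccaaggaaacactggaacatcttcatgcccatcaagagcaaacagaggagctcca
The windows held 3 CG in FKBP5, 12 in GLO1, 15 in MDGA1, 22 in JARID2, 39 in TMEM170B and 2 in MICAL1. Of 27305 promoters in the same table, 93.6% held at least 1 CG and the median was 11. At least as many as in TMEM170B were held by 2.51% of all promoters, and at least as many as in FKBP5 by 76.4%. A promoter entry was found for 461 of the 523 genes, with a median of 20 CG. The median in the stretches of the chromosome described next lay between 18 and 23.

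The ratio used, except where a log2 fold change is named, is log2 of an overexpressing library's CPM over the mean of the 3 controls. To each, 0.5 CPM was added first. Along chromosome 6 this ratio ran in blocks. It lay around 0 over the first 35 Mb, stood far above 0 in a short block, held 2 lower levels above 0 until about 57 Mb, and lay below 0 from there to the end of the long arm. A fit of constant levels to the ordered genes, by least absolute deviation from stretch medians with at least 10 genes a stretch, gave 7 stretches by the Schwarz criterion. Their medians were -0.00 (DUSP22 to ANKS1A, 194 genes), 2.02 (ZNF76 to MAPK14, 10 genes), 0.89 (MAPK13 to UBR2, 37 genes), 0.54 (TBCC to ZNF451, 55 genes), -0.32 (BAG2 to CCNC, 59 genes), -0.63 (ASCC3 to NCOA7, 58 genes) and -0.31 (HINT3 to PDCD2, 110 genes). As linear ratios these medians are 0.999, 4.07, 1.85, 1.46, 0.799, 0.646 and 0.807. Because the genes and their order were taken up on this contrast, the levels and the positions of the steps are descriptions and carry no test.

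**Figure D1:**
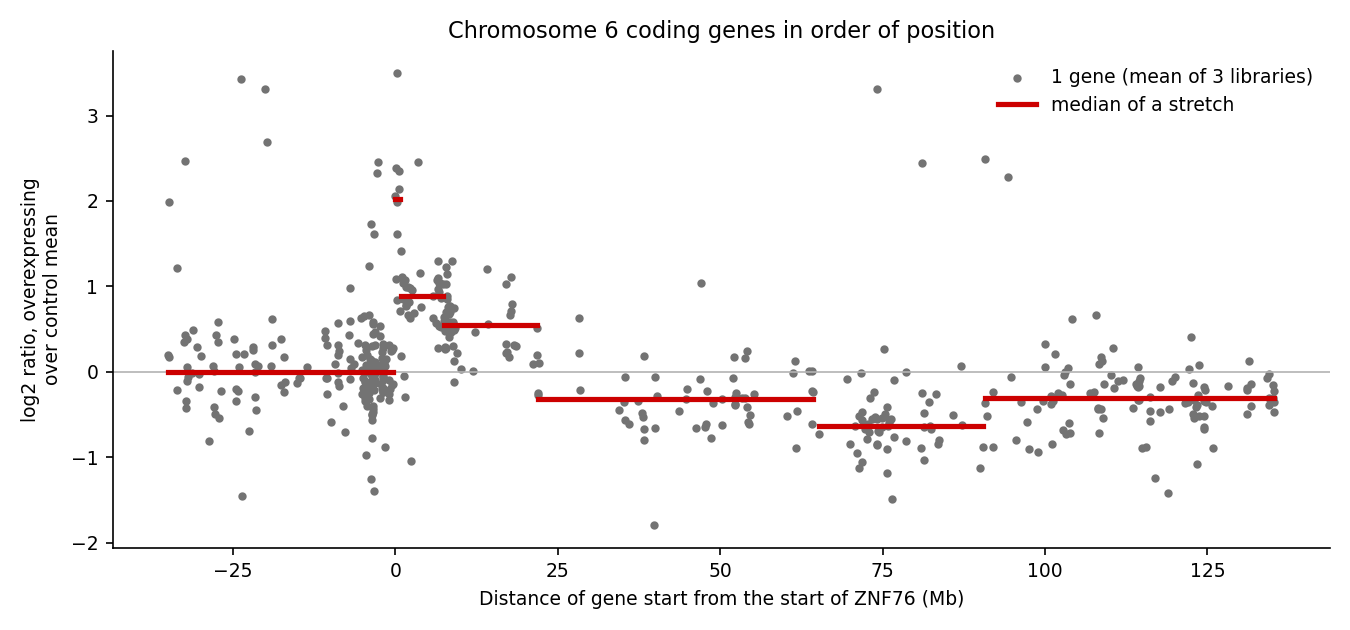
Log2 ratio of overexpressing over control (y axis, mean of 3 libraries) for each of the 523 genes against the distance of its start from the start of ZNF76 (x axis, Mb), with a red line for the median of each of 7 stretches. The lines sit at -0.00 left of 0, at 2.02, 0.89 and 0.54 right of it, and below 0 from about 22 Mb onward, while single points lie far above the lines at several places.

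The 3 overexpressing libraries gave the same order of levels when each was set against the control mean. Overexpressing replicates 1, 2 and 3 had medians of -0.01, -0.01 and 0.06 in the first stretch and of 2.01, 2.04 and 2.03 in the second. In the third stretch they were 0.90, 0.91 and 0.84, and in the fourth 0.56, 0.56 and 0.54. Below 0, the medians were -0.32, -0.31 and -0.38 in the fifth stretch, -0.59, -0.65 and -0.66 in the sixth, and -0.29, -0.25 and -0.29 in the seventh. Replicate 1, which differed from the others in its B lineage markers, lay beside them in each of these 7 medians. The single controls against their own mean lay within 0.06 of 0 in stretches 1 to 4 and 7. Control replicate 3 lay lower further on, with medians of -0.16 in the fifth stretch and -0.12 in the sixth, where control replicates 1 and 2 lay between 0.03 and 0.08.

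**Figure D2:**
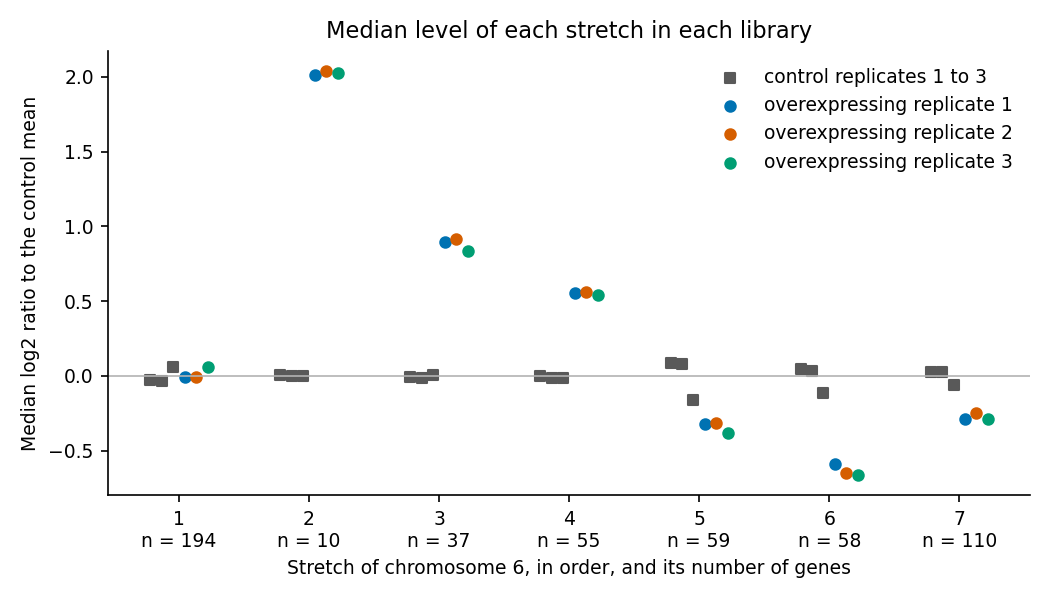
Median log2 ratio to the control mean (y axis) of each stretch (x axis, with its number of genes) in each library, with grey squares for controls 1 to 3 and coloured points for overexpressing replicates 1 to 3. The overexpressing points lie together at 2.01 to 2.04 in the second stretch and at -0.66 to -0.59 in the sixth, and control replicate 3 is the lowest square in stretches 5 to 7.

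In the edgeR quasi-likelihood test with Benjamini-Hochberg adjustment over 19485 genes, 131 of the 523 genes were called higher and 151 lower at an adjusted p under 0.05. Over all genes tested, 14.2% were called higher and 9.94% lower. Among coding genes of at least 5 CPM on the other chromosomes the shares were 17.5% and 14.9%. In the block from ZNF76 to ZNF451, stretches 2 to 4, 83 of 102 genes were called higher and 1 lower. From BAG2 to PDCD2, stretches 5 to 7, 9 of 227 were called higher and 121 lower. The first stretch had 39 higher and 29 lower of 194, which is 20.1% and 14.9%, near the shares of the other chromosomes. All 3 overexpressing libraries lay above all 3 controls for 160 of the 523 genes (30.6%) and below them for 185 (35.4%). The shares were 23.0% and 19.3% of all genes tested. For coding genes of at least 5 CPM on the other chromosomes they were 26.2% and 25.5%. The genes lying above all controls numbered 88 of 102 in stretches 2 to 4, and those lying below numbered 140 of 227 in stretches 5 to 7. These counts come from the contrast that drew attention to the chromosome.

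The step up lay between ANKS1A (34889265 to 35091413, plus strand) and ZNF76 (35258909 to 35295985, plus strand), across a gap of 167 kb. The difference between the stretch medians on the 2 sides was 2.03, and it was 2.01, 2.05 and 1.96 in overexpressing replicates 1, 2 and 3. ANKS1A, an adaptor protein, had 58.2, 53.7 and 46.4 CPM in controls and 62.5, 68.0 and 61.3 CPM in the overexpressing libraries. Its groups did not overlap, but edgeR did not call it. The zinc finger gene ZNF76 had 59.6, 64.4 and 64.2 CPM in controls and 262, 270 and 256 CPM in the overexpressing libraries. TAF11, a subunit of the general transcription factor TFIID just before ANKS1A, had 65.5, 66.2 and 71.6 CPM against 57.5, 60.6 and 65.4 CPM. Thus neighbouring genes lay at mean ratios of -0.15 (TAF11), 0.27 (ANKS1A) and 2.06 (ZNF76). Placing the step at ANKS1A instead raised the total deviation of the fit by less than 1%.

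The block that followed spanned 0.852 Mb and 10 genes, which is also the smallest number a stretch could hold. DEF6, a guanine exchange factor of lymphocytes, had 178, 170 and 198 CPM in controls and 385, 382 and 390 CPM in the overexpressing libraries. PPARD (35342558 to 35428191), a nuclear receptor for fatty acids, had 27.8, 25.8 and 27.9 CPM against 152, 149 and 133 CPM, a mean ratio of 2.39. FANCE, a member of the Fanconi anaemia core complex of DNA repair, had 39.2, 37.5 and 42.7 CPM against 157, 159 and 165 CPM. In all of these genes the lowest overexpressing library lay above the highest control. RPL10A, a protein of the large ribosomal subunit, had a mean ratio of 0.84, with 786, 790 and 988 CPM against 1453, 1453 and 1713 CPM. TEAD3, a transcription factor of the Hippo pathway, had 5.23, 5.94 and 4.99 CPM against 17.1, 17.2 and 18.2 CPM.

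FKBP5 (ENSG00000096060; 35573585 to 35728583, minus strand), a co-chaperone of HSP90 that binds steroid receptors, had 92.0, 94.1 and 78.9 CPM in controls and 1027, 1053 and 925 CPM in the overexpressing libraries. Its mean ratio was 3.49 ± 0.10 (SD, n = 3), which is 1.47 above the median of its own stretch. LHFPL5, a membrane protein known from hair cells, had a mean ratio of 2.35 and has exons opposite those of SRPK1. SRPK1 (35832966 to 35921342, minus strand), a kinase of splicing factors, had 204, 200 and 184 CPM against 876, 897 and 828 CPM. MAPK14 (36027677 to 36111236, plus strand), the p38 alpha kinase, closed the block with 217, 205 and 204 CPM against 351, 345 and 333 CPM. Its mean ratio of 0.72 was the lowest of the 10 genes, a difference of -1.31 from the stretch median. The 10 ratios thus ran from 0.72 to 3.49, a wider range than between the medians of any 2 adjacent stretches.

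**Figure D3:**
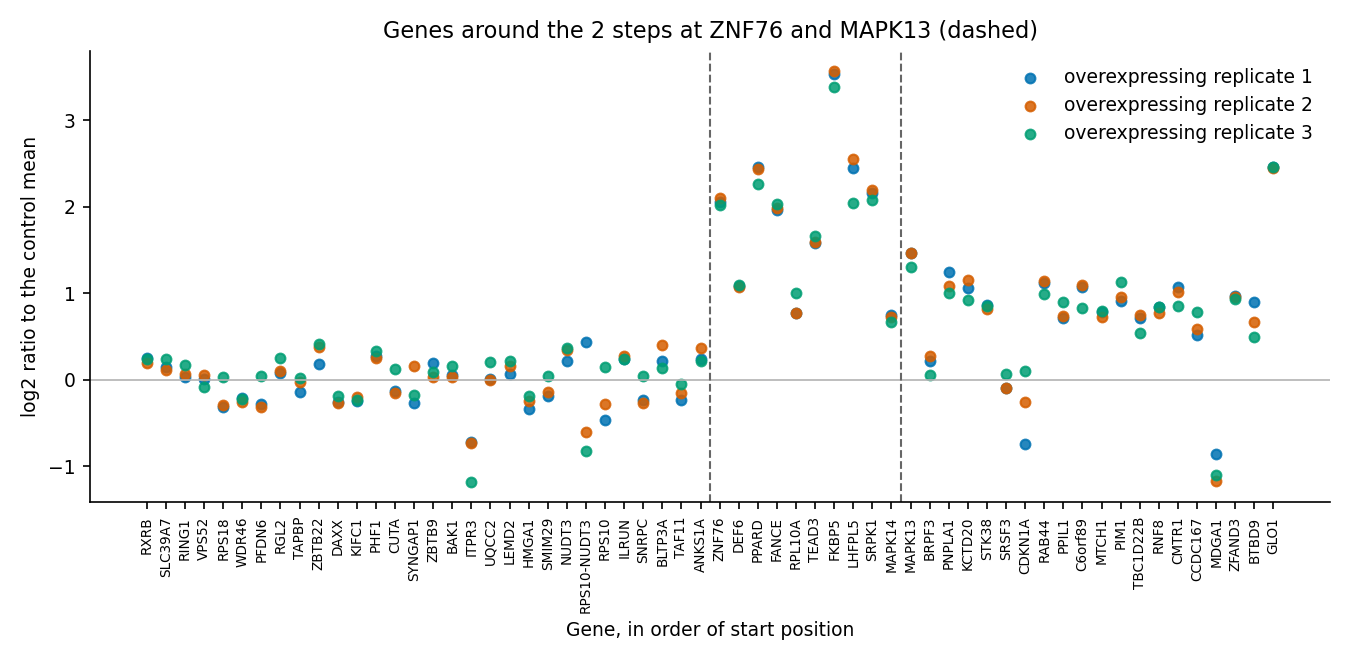
Log2 ratio to the control mean (y axis) of genes in order of start position (x axis, by name) around the block from ZNF76 to MAPK14, which lies between the dashed lines, with 1 coloured point per overexpressing replicate. Genes left of the block scatter around 0, FKBP5 reaches 3.38 to 3.57, and MDGA1 is the lowest gene right of the block.

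The next step lay between MAPK14 and MAPK13, 2 p38 kinase genes set 16.6 kb apart, with a difference of -1.14 between the stretch medians. This edge was less sharply placed than the first. MAPK13 (36127809 to 36144524), the p38 delta kinase, had 5.78, 5.41 and 5.33 CPM in controls and 16.1, 16.1 and 14.3 CPM in the overexpressing libraries, a mean ratio of 1.41 and so above that of MAPK14. BRPF3, a scaffold of histone acetyltransferase complexes, followed with 53.8, 57.96 and 44.5 CPM against 60.3, 63.1 and 54.3 CPM, groups that overlapped. Overexpressing replicates 1 and 2 alone put the step at BRPF3 (36.2 Mb) and replicate 3 put it at MAPK13. With a fit that differed by less than 1% in total deviation it could stand anywhere from RPL10A (35.5 Mb) to KCTD20 (36.4 Mb).

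In the third stretch, 36.1 to 42.7 Mb, 32 of 37 genes lay above all controls and 32 were called higher. Among coding genes of at least 5 CPM on the other chromosomes 26.2% lay above all controls and 17.5% were called higher. A further 25.5% lay below all controls, and these shares stand beside the counts of the later stretches too. RAB44, a large Rab-family GTPase, had 208, 204 and 213 CPM against 452, 460 and 414 CPM. PIM1, a serine/threonine kinase of cytokine signalling, had 73.5, 76.9 and 74.0 CPM against 140, 145 and 164 CPM. CCND3, which encodes cyclin D3 of the G1 phase, had 125, 122 and 143 CPM against 237, 248 and 260 CPM. Their mean ratios of 1.08, 0.99 and 0.93 lay close to the stretch median of 0.89. UBR2, a ubiquitin ligase at the far edge, still had a ratio of 1.03.

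GLO1 (ENSG00000124767; 38675925 to 38703141, minus strand), the glyoxalase that removes methylglyoxal, stood out within this stretch. It had 933, 927 and 925 CPM in controls and 5112, 5086 and 5103 CPM in the overexpressing libraries. The ratio was 2.46 ± 0.0037 (SD, n = 3), so the 3 libraries differed from each other by far less than from the controls, and it was 1.57 above the stretch median. MDGA1 (ENSG00000112139; 37630679 to 37699306, minus strand), a cell adhesion protein anchored in the membrane, was the opposite case. It had 17.4, 14.3 and 17.7 CPM in controls and 8.88, 7.05 and 7.40 CPM in the overexpressing libraries, a mean ratio of -1.04 ± 0.17 (SD, n = 3) in a stretch with a median of 0.89. Of the other genes not above all controls here, SRSF3, a splicing factor, had 554, 549 and 580 CPM against 523, 524 and 586 CPM. CDKN1A, the p21 inhibitor of cell cycle kinases, had 17.3, 19.3 and 16.5 CPM against 10.4, 14.8 and 19.1 CPM, and the groups overlapped. The remaining ones were BRPF3 and TOMM6, of which the latter shares exons with another gene.

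The fourth stretch, 42.7 to 57.2 Mb, held no gene below all controls, and 46 of 55 genes lay above them. The edge between the third and the fourth stretch, at UBR2 and TBCC, was a small one of -0.34 and was placed within 1% of the lowest deviation anywhere between KCNK5 (39.2 Mb) and GCLC (53.5 Mb). It was found in overexpressing replicates 1 and 3 alone but not in replicate 2 alone. HSP90AB1, the constitutive HSP90 chaperone, had 2390, 2378 and 2559 CPM in controls and 3319, 3418 and 3573 CPM in the overexpressing libraries, a mean ratio of 0.49. CUL7, a scaffold of ubiquitin ligases, had 43.0, 43.4 and 43.4 CPM against 92.9, 90.9 and 82.8 CPM. MMUT, the mitochondrial methylmalonyl-CoA mutase, had 31.1, 31.6 and 28.2 CPM against 72.1, 71.8 and 67.4 CPM, a ratio of 1.20 that was among the highest of the stretch. MCM3, a subunit of the replicative helicase, had a smaller ratio of 0.21, with 516, 513 and 557 CPM against 610, 614 and 618 CPM. The 9 genes whose groups overlapped were MRPL14, SLC29A1, NFKBIE, RUNX2, TNFRSF21, TRAM2, TMEM14A, DST and KIAA1586. RUNX2, a transcription factor of bone and blood, had 45.6, 47.0 and 39.4 CPM against 50.3, 42.6 and 42.9 CPM.

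Level turned from above to below 0 between ZNF451 and BAG2 (57172326 to 57189833), with a difference of -0.86 between the stretches on either side. ZNF451, a SUMO ligase, had 69.4, 73.1 and 51.9 CPM in controls and 101, 93.8 and 85.3 CPM in the overexpressing libraries. BAG2, a co-chaperone of HSP70, had 35.6, 35.6 and 27.5 CPM against 25.3, 26.3 and 30.1 CPM, so its groups overlapped. Few genes lie here, near the centromere, and the position was loose. Overexpressing replicate 3 alone put the step at PHF3 (63.6 Mb), a fit with 1 stretch more split the turn between GCLC and PHF3, and placements from GCLC (53.5 Mb) to LMBRD1 (69.7 Mb) differed by less than 1% in deviation. PRIM2, a DNA primase subunit between the 2 placements, had 35.8, 37.8 and 36.5 CPM against 40.1, 37.4 and 40.9 CPM.

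The fifth stretch reached from 57.2 to 99.6 Mb with 30 of 59 genes below all controls, against 25.5% on the other chromosomes. EEF1A1, the elongation factor that brings aminoacyl-tRNA to the ribosome, had 12002, 12126 and 14051 CPM in controls and 7623, 7730 and 8684 CPM in the overexpressing libraries, and its count is uncertain because near-identical copies exist. SYNCRIP, an RNA-binding protein, had 599, 589 and 522 CPM against 372, 379 and 357 CPM. MTO1, which modifies mitochondrial tRNA, had 64.9, 63.2 and 60.6 CPM against 36.7, 34.8 and 36.0 CPM. In these 3 genes the groups were far apart. At the end of the stretch the ratios were nearer 0, with -0.23 for PNISR, 0.01 for USP45 and -0.24 for CCNC, the cyclin C gene.

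The sixth stretch, from ASCC3 (100508194 to 100881372) to NCOA7, held the lowest levels, and 48 of its 58 genes lay below all controls. FYN (ENSG00000010810; 111660332 to 111873452, minus strand), a kinase of the Src family, had 46.7, 46.5 and 46.0 CPM in controls and 16.3, 14.8 and 17.8 CPM in the overexpressing libraries, a mean ratio of -1.49 ± 0.13 (SD, n = 3). HDAC2, a histone deacetylase, had 403, 400 and 417 CPM against 231, 227 and 237 CPM. SEC63, a protein of the endoplasmic reticulum translocon, had 258, 246 and 219 CPM against 143, 138 and 137 CPM. CD164, a sialomucin of blood progenitors, had 484, 483 and 387 CPM against 319, 306 and 296 CPM. None of these groups overlapped. HACE1, a ubiquitin ligase and tumour suppressor candidate, had 32.5, 29.8 and 19.97 CPM against 27.7, 25.96 and 23.9 CPM, and its groups did overlap. The step into this stretch was -0.31, lay across a gap of 939 kb and was found in overexpressing replicates 1 and 2 alone but not in replicate 3 alone. Placements from RNGTT (88.6 Mb) to SEC63 (107.9 Mb) differed by less than 1% in total deviation.

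The seventh stretch reached from HINT3 (125956781 to 125980244) to the last gene, PDCD2, and 62 of its 110 genes lay below all controls. Its lower edge, a difference of 0.32, stood at HINT3 in overexpressing replicates 1 and 3 and at HBS1L (135 Mb) in replicate 2. This edge was loosely placed, and positions from TUBE1 (112.1 Mb) to HECA (139.1 Mb) differed by less than 1% in total deviation. NCOA7, the last gene before it, had 45.2, 43.8 and 34.2 CPM against 24.2, 22.1 and 20.1 CPM. HINT3 had 37.0, 37.1 and 36.7 CPM against 29.2, 27.1 and 29.1 CPM. TCP1, a subunit of the CCT chaperonin, had 740, 724 and 772 CPM against 467, 444 and 490 CPM. RPS12, a ribosomal protein, had 1080, 1089 and 1446 CPM against 594, 592 and 751 CPM. The lysosomal sorting receptor IGF2R had 431, 421 and 323 CPM against 348, 335 and 247 CPM, groups that overlapped.

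MYB (135181315 to 135219173), the transcription factor of immature blood cells, went the other way within this stretch. It had 446, 448 and 353 CPM in controls and 538, 537 and 489 CPM in the overexpressing libraries. The groups did not overlap and the mean ratio was 0.32, but edgeR did not call it. CITED2, a transcriptional co-regulator, had 212, 203 and 207 CPM against 322, 314 and 318 CPM, and was called higher. In stretches 5 to 7 a total of 16 of 227 genes lay above all controls. Besides MYB and CITED2 these were SLC17A5, TPBG, SMIM8, MICAL1, SLC22A16, TSPYL4, TRMT11, ARHGAP18, PEX7, AIG1, LTV1, FBXO30, SNX9 and ENSG00000285976. Of these, TPBG, SMIM8, MICAL1, TSPYL4, TRMT11 and ARHGAP18 had control means under 5 CPM and passed the level limit only through the overexpressing libraries.

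A gene was said to depart from its neighbours when its ratio differed from the median of the 20 nearest genes by at least 1 on the log2 scale, in the same direction in each of the 3 overexpressing libraries. That held upward for 22 genes and downward for 2, which are 4.21% and 0.382% of the 523. The downward count was 6 without overexpressing replicate 1 and 4 without overexpressing replicate 3. On the other chromosomes 1.83% of 9710 coding genes departed upward and 0.927% downward by the same measure. Of the 22, 10 lay in the first stretch, 6 in the short block, and 1, 1, 2 and 2 in stretches 3, 5, 6 and 7, while the fourth stretch held 0. In the short block the neighbours used for the comparison include genes outside it. Against the median of the gene's own stretch, 17 genes departed upward, all among the 22, and in the short block only FKBP5 remained. By that measure 4 departed downward, ADTRP, RPL10A, MAPK14 and MDGA1. A limit on low levels also bears on these numbers. In 15 of the 523 genes the control mean was under 5 CPM, so they entered only through higher levels in the overexpressing libraries, and 10 of these 15 are among the 22. CD109, at a mean of 4.95 CPM, lay just under the level limit and SMIM8, at 5.05 CPM, just over it. FOXC1, with 1.01 as its smallest difference from the neighbours in any library, was just inside the upward limit and SLC22A16, with 0.84, just outside. Downward, ADTRP with -1.31 was just inside and IPCEF1 with -0.89 just outside.

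**Figure D4:**
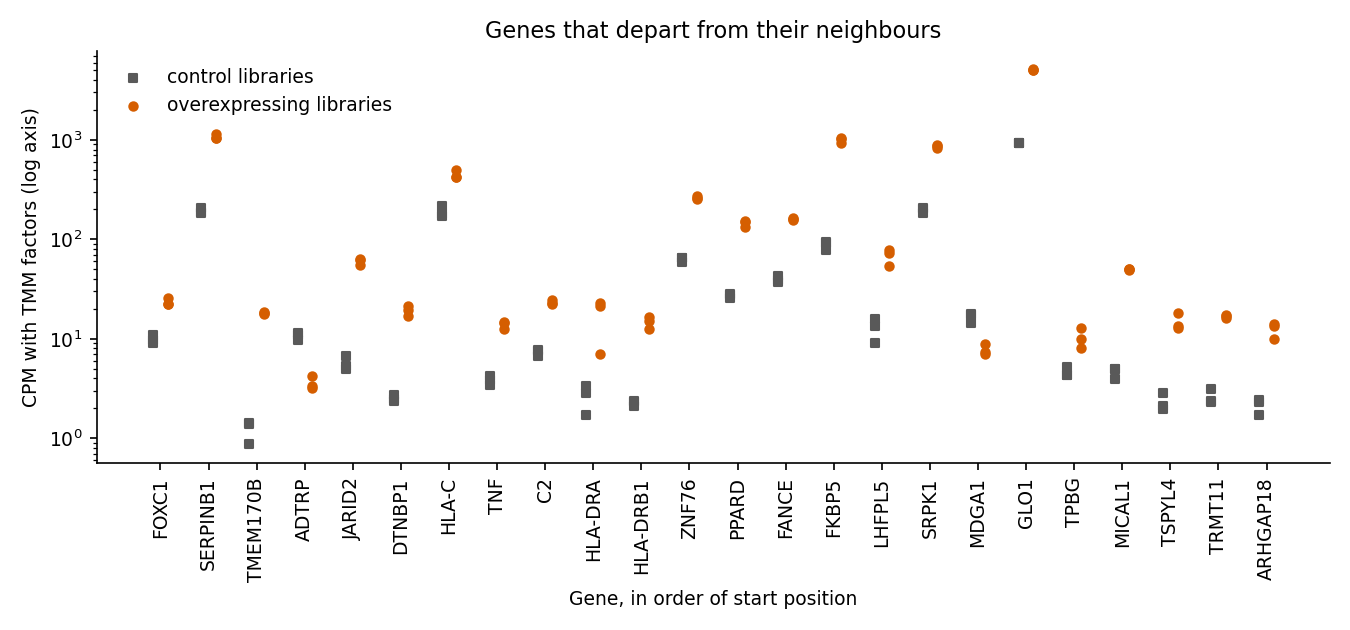
Level (y axis, CPM on a log scale) of the 24 genes that departed from their neighbours, in order of position (x axis), with grey squares for 3 control and orange points for 3 overexpressing libraries. The 2 groups are separate in each gene, and ADTRP and MDGA1 are the genes with the overexpressing libraries below. In HLA-DRA the lowest orange point is overexpressing replicate 1, which lies well below the other 2.

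In the first stretch SERPINB1 (ENSG00000021355; 2832332 to 2842006, minus strand), an inhibitor of the neutrophil serine proteases, had 190, 184 and 208 CPM in controls and 1044, 1045 and 1136 CPM in the overexpressing libraries. The median ratio of its 20 neighbours was 0.17. TMEM170B (11538278 to 11583524, plus strand), a membrane protein gene, had 0.874, 1.39 and 1.41 CPM against 18.1, 17.9 and 18.4 CPM, and its ratio of 3.43 varied between 3.10 and 3.78 with the pseudocount. ADTRP (11712054 to 11807046, minus strand), a lipid hydrolase that affects a coagulation inhibitor, lies close by and had 11.4, 9.62 and 10.9 CPM against 3.21, 3.33 and 4.23 CPM. These 2 genes, 0.129 Mb apart, thus departed in opposite directions amid neighbours with medians of -0.05 and 0.02. TMEM170B lay under 5 CPM in every control, so its upward direction follows from the level limit. FOXC1, a forkhead transcription factor, had 9.65, 10.9 and 9.02 CPM against 22.5, 25.9 and 22.4 CPM.

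JARID2 (ENSG00000008083; 15246296 to 15522040, plus strand), a subunit of the Polycomb repressive complex PRC2, had 5.26, 6.64 and 4.99 CPM in controls and 62.1, 64.0 and 55.5 CPM in the overexpressing libraries. DTNBP1 (15522801 to 15663058, minus strand), the dysbindin gene of endosome and lysosome trafficking, lies directly after it, with the 3′ ends of the 2 genes 0.761 kb apart, and had 2.39, 2.75 and 2.48 CPM against 17.0, 19.3 and 21.5 CPM. Both departed, by 3.28 and 2.66, from neighbours with a median of 0.03. In both genes all overexpressing libraries lay far above the controls. DTNBP1 lay under 5 CPM in every control, so it passed the level limit only through the overexpressing libraries and its direction follows from that.

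On the long arm MICAL1 (ENSG00000135596; 109444062 to 109465968, minus strand), an enzyme that oxidises actin, had 3.96, 4.95 and 4.96 CPM in controls and 49.0, 50.8 and 50.5 CPM in the overexpressing libraries. The median of its neighbours was -0.62, so it departed by 3.92, more than any other gene of the chromosome. MICAL1 shares exons with ZBTB24, a zinc finger gene on the same strand, which makes part of the counts of both uncertain. ZBTB24 had 53.1, 49.4 and 44.4 CPM against 25.7, 30.0 and 24.7 CPM and so had a ratio of -0.86, unlike MICAL1. TSPYL4 (116249961 to 116254140) had 1.98, 2.82 and 2.09 CPM against 13.5, 18.1 and 13.0 CPM. TRMT11 (125986430 to 126203817), a tRNA methyltransferase subunit, starts 6.19 kb after the end of HINT3 and had 2.35, 3.14 and 2.30 CPM against 16.2, 17.5 and 17.0 CPM, where HINT3 was lower in all 3 libraries. ARHGAP18, a GTPase-activating protein, had 2.41, 2.33 and 1.71 CPM against 14.0, 13.5 and 10.0 CPM. TPBG, a surface glycoprotein of trophoblast, had 4.35, 5.20 and 4.33 CPM against 12.8, 8.06 and 9.91 CPM. MICAL1, TSPYL4, TRMT11, ARHGAP18 and TPBG all had control means under 5 CPM. They passed the level limit only through the overexpressing libraries, and their upward direction follows from that.

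The immune genes of the short arm lie in the first stretch, where the median was -0.00. Of 11 class I and peptide loading genes, 6 were called higher and 1 lower, with a median ratio of 0.42. The median edgeR log2 fold change over all genes tested was 0.01. The counts of this list and of those that follow stand beside 14.2% called higher and 9.94% called lower over all genes tested. Among coding genes of at least 5 CPM on the other chromosomes the shares were 17.5% and 14.9%. HLA-C had 171, 181 and 215 CPM in controls and 423, 424 and 495 CPM in the overexpressing libraries and departed from its neighbours. HLA-E had a ratio of 0.66 with groups that did not overlap. HLA-B had a ratio of 0.66 too, but it shares exons with HLA-C in the annotation, and reads of these similar genes can be assigned to the wrong one. PSMB8, a subunit of the immunoproteasome, had 132, 127 and 157 CPM against 138, 136 and 164 CPM, which overlapped. TAP2, of the peptide transporter, was the gene called lower, with a ratio of -0.31.

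Of 13 class II genes only HLA-DRA and HLA-DRB1 reached 5 CPM, and both were called higher. Both lay under 5 CPM in every control, so they passed the limit only through the overexpressing libraries. Their direction follows from that and is no result for the class. TNF, named below, passed in the same way. HLA-DRB1 had 2.12, 2.29 and 2.37 CPM in controls and 12.5, 15.1 and 16.4 CPM in the overexpressing libraries. HLA-DRA, the alpha chain of the DR molecule, had 2.84, 3.36 and 1.69 CPM against 7.05, 22.9 and 21.5 CPM. Replicate 1 was thus well below replicates 2 and 3 for HLA-DRA, in the same order as the sums of the B lineage markers. Of 11 genes in a list of TNF, complement and other immune genes in or near the class III region, 2 were called higher and 5 lower. Their median was -0.34, the ratio of ABCF1. ABCF1 (30.6 Mb) and IER3 (30.7 Mb) lie before the class I genes HLA-C and HLA-B (31.3 Mb), and so not between class I and class II. TNF, the inflammatory cytokine, had 3.89, 4.25 and 3.41 CPM against 12.6, 14.4 and 14.9 CPM, and complement C2 had 6.76, 7.66 and 7.46 CPM against 22.4, 22.9 and 24.5 CPM but shares exons with CFB. AIF1, a calcium-binding protein of macrophages, was lower with 88.4, 87.9 and 112 CPM against 63.7, 61.9 and 79.4 CPM. Butyrophilins, ligands and regulators of gamma-delta T cells, had 2 of 5 called higher, BTN3A2 (0.32) and BTN3A1 (0.57). Only 1 of 53 replication-dependent histone genes, H2BC12, reached the level limit. Its ratio was -0.40. Messages of these histones end without a poly(A) tail.

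Overexpressing replicate 1 differed at least 2-fold from replicates 2 and 3 in a few genes, named here for that reason after their values were seen. IRF4, a transcription factor of B and plasma cells, had 1.85, 1.55 and 1.11 CPM in controls, against 1.21 CPM in overexpressing replicate 1, 15.0 CPM in replicate 2 and 18.4 CPM in replicate 3. Complement factor B (CFB) had 19.3, 21.6 and 14.9 CPM against 16.6, 2.73 and 6.38 CPM, and DSP, the desmosome protein desmoplakin, 9.52, 8.67 and 11.0 CPM against 11.5, 4.93 and 5.36 CPM. COL12A1, a fibril-associated collagen in the fifth stretch, had 24.2, 34.1 and 32.8 CPM against 30.1, 2.39 and 7.42 CPM. In IRF4, DSP, CFB and COL12A1 replicate 1 lay within or beside the controls. The others were HLA-DRA, the read-through gene RPS10-NUDT3 and ENSG00000124593. The stretch medians of replicate 1 did not follow this pattern.

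The remaining gene lists were spread along the chromosome, and their ratios are given beside the stretch they lie in. Of 22 translation genes, 8 were called higher and 9 lower, the higher ones all in stretches 2 to 4 and the lower ones all in stretches 1 and 5 to 7. Only 3 of the 22 had a ratio above the median of their 20 neighbours, and the median difference from the neighbours was -0.23. MRPS10, of the mitochondrial ribosome, had 96.0, 98.2 and 98.1 CPM against 135, 140 and 145 CPM in the third stretch, and RPS18 had 1380, 1378 and 1766 CPM against 1209, 1230 and 1538 CPM in the first. RPS18 overlapped between groups, and control replicate 3 and overexpressing replicate 3 were the high libraries of RPS18, RPS12 and EEF1A1 alike. Ribosomal protein counts are uncertain because of their many pseudogenes.

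Of 21 cell cycle and replication genes, 8 were called higher and 8 lower. The 8 higher were MAPK14, MAPK13, PIM1, CCND3, POLH, CDC5L, CENPQ and MCM3, all between MAPK14 and MCM3. Of the 8 lower, GMNN and KIFC1 lie in the first stretch and CCNC, CDK19, REV3L, MCM9, CENPW and FBXO5 on the long arm. Of 19 stress and nuclear receptor genes of the middle of the chromosome, 16 were called higher and 1, LMBRD1, lower, with a median of 0.77. In the third stretch 5 such genes had a median of 1.07 against 0.84 for the other 32 genes there, and in the fourth 10 had 0.65 against 0.52 for the other 45. The stress list was chosen partly by position, and 83 of all 102 genes of stretches 2 to 4 were called higher. Of 30 lymphoid and tumour suppressor genes of the long arm, 14 were called lower and 0 higher at a median of -0.36. Their median difference from the neighbours was 0.01. This list too was chosen partly by position, and 121 of all 227 genes of stretches 5 to 7 were called lower. SOD2, the mitochondrial superoxide dismutase, had 240, 240 and 226 CPM against 180, 156 and 156 CPM, and FOXO3, a forkhead factor, 82.3, 79.6 and 66.3 CPM against 55.4, 53.9 and 46.5 CPM.

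Of 17 mitochondrial genes 6 were called higher and 4 lower. In the first stretch 3 of 6 were called higher and 0 lower, with a median of 0.26 against -0.01 for the other 188 genes there. In the fifth stretch 6 had a median of -0.63 against -0.31 for the other 53 genes there. COX7A2, a subunit of cytochrome c oxidase, had 81.1, 80.9 and 101 CPM in controls and 52.3, 53.2 and 61.5 CPM in the overexpressing libraries. MTCH1, of the outer mitochondrial membrane, had 155, 153 and 185 CPM against 282, 272 and 286 CPM in the third stretch. Of 17 proteasome and ubiquitin genes 7 were called higher and 3 lower, at a median of 0.24. All 3 in the third stretch and all 3 in the fourth were called higher, where 86.5% and 74.5% of all genes were. In the fifth stretch 0 of 5 were called higher and 1 lower, and in the seventh 0 of 3 higher and 2 lower. Of all genes in those 2 stretches, 39.0% and 47.3% were called lower. PSMB1, a core proteasome subunit near the end of the long arm, had 273, 272 and 324 CPM against 213, 215 and 254 CPM. RNF8, a ubiquitin ligase of the DNA damage response in the third stretch, had 39.0, 37.5 and 36.9 CPM against 67.8, 64.7 and 67.9 CPM. Of 16 zinc finger genes 5 were called higher and 3 lower, with ZNF76 as the highest. In the first stretch 2 of 10 were called higher and 1 lower, beside 20.1% and 14.9% of all genes there.

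Genes that the rule left out are a further readout of the same libraries, and they were read in the stretches already placed. Coding genes under 5 CPM that edgeR could test had median log2 fold changes of 0.07 (89 genes), 2.29 (3), 1.20 (13), 0.37 (16), 0.38 (23), -0.18 (17) and -0.27 (44) in stretches 1 to 7. Non-coding genes had 0.09 (97 genes), 0.61 (4), 1.73 (9), 0.40 (17), 0.03 (27), -0.37 (19) and -0.07 (60). In stretches 2, 3 and 4, 2 of 4, 9 of 9 and 13 of 17 non-coding genes lay above 0. For low coding genes it was 3 of 3, 9 of 13 and 10 of 16. In stretches 5, 6 and 7 it was 16 of 27, 4 of 19 and 29 of 60 non-coding genes and 15 of 23, 7 of 17 and 14 of 44 low coding genes. As ratios with the pseudocount, the non-coding genes of the third stretch had lower medians of 0.54, 0.68 and 0.75 in overexpressing replicates 1, 2 and 3. In the fifth stretch the low coding genes, at 0.38, did not share the sign of the 59 genes above 5 CPM, at -0.32. On the other chromosomes the medians were 0.01 for 3760 low coding genes and 0.06 for 4472 non-coding genes.

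Control level, gene length and strand were compared within stretches as well. In the third stretch the genes with the lower control CPM had a median ratio of 0.97 and those with the higher 0.85, and plus strand genes had 0.97 and minus strand genes 0.85. In stretches 5 to 7 the shorter genes had -0.33 and the longer -0.42. In these splits the sign was the same on both sides. In the first stretch, which lay near 0, it was not, with 0.11 and -0.07 for lower and higher control CPM, 0.06 and -0.05 for plus and minus strand, and -0.01 and 0.04 for shorter and longer genes. Of the 523 genes, 91 have exons in common with another gene of the same strand and 214 have exons of another gene opposite, so their counts are uncertain. A fit to only the genes without such exons, chosen after seeing the data, kept the step at ZNF76 but gave 4 stretches, with further steps at MRPL14 (44.1 Mb) and COL12A1 (75.1 Mb) and medians of 0.06, 0.85, 0.22 and -0.38. The short block, with 8 such genes, was under the 10 a stretch needed.

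The same fit was made for each of the other chromosomes, to place these levels beside them. Chromosome 6 had 7 stretches, a highest median of 2.02 and a step of 2.03. Chromosome 20 had 4 stretches from -0.77 to 1.04, with its largest step of -1.81 at HM13, and chromosome 15 had 5 stretches from -0.51 to 0.40. Chromosome X was fitted by 1 stretch at 0.48, and chromosomes 3, 4, 5, 8, 17 and 22 were each fitted by 1 stretch between -0.11 and 0.00. The median of the 9710 coding genes of the other chromosomes was -0.02, with quartiles of -0.21 and 0.23, and that of the 523 genes of chromosome 6 was -0.07, since its higher and lower blocks lay on both sides.

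**Figure D5:**
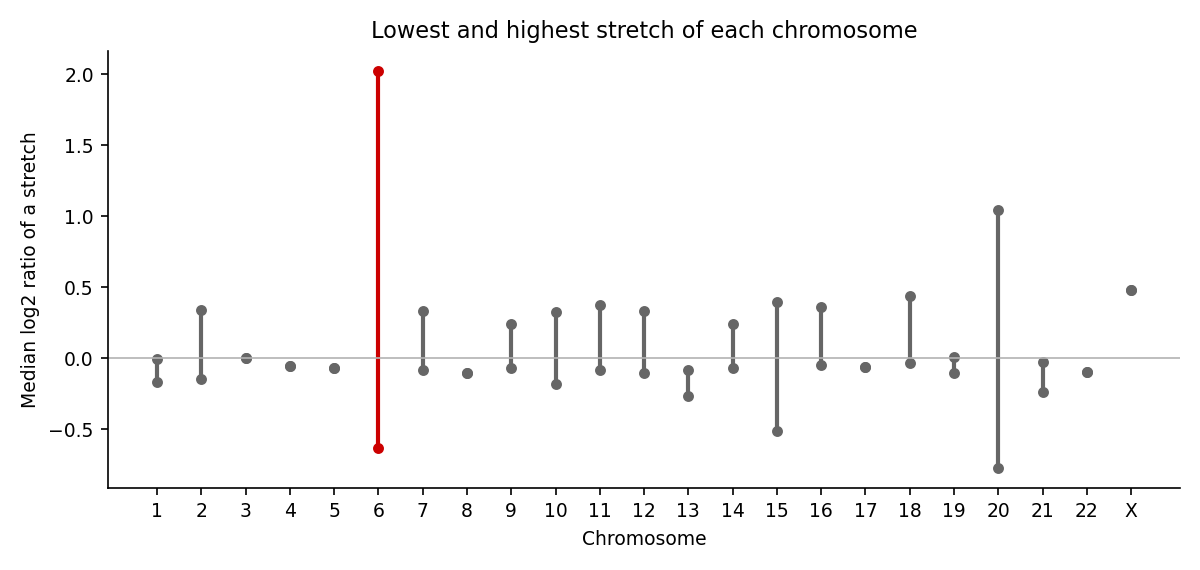
Lowest and highest median log2 ratio of a stretch (y axis, joined by a line) for each chromosome (x axis), with chromosome 6 in red and a single point where 1 stretch was fitted. Chromosome 6 spans -0.63 to 2.02 and chromosome 20 spans -0.77 to 1.04, and the other points lie between -0.51 and 0.48.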

How the data were processed

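Gene counts of 6 poly(A) RNA libraries were used, 3 control and 3 overexpressing. Reads were handled with fastp and FastQC, STAR and featureCounts (Subread) on GRCh38 (hg38), per the submitters' processing notes. Tool versions, annotation release, counting unit and strand setting are not given in the sources used here. Values the authors deposited were treated as estimated counts. They are whole numbers, but in control replicate 1, 1496 genes hold exactly 4 counts against 777 at 3, so 1 fragment may stand for several counts, and counts divided by 4 were tried. No other per-sample columns were left unused (0).

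Positions and gene types came from GENCODE for GRCh38. Levels are CPM with TMM factors, and ratios use a pseudocount of 0.5 CPM. Genes were tested with edgeR 4.0.16 (R 4.3.3; filterByExpr, quasi-likelihood test, Benjamini-Hochberg adjustment over all genes tested, threshold 0.05), which was tested on simulated data. Stretches were fitted by dynamic programming, with 1 to 8 stretches of at least 10 genes.

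The genes, the gene lists and the tests were chosen with earlier results of these data known. Genes were named by rule: 2 on each side of a step, the 10 largest departures each way, up to 3 abundant and 2 called members of each list, and the 3 most abundant of each stretch. Further genes, such as the other departing genes, those against the direction of their stretch, FOXO3, SOD2, TAP2, CITED2, RUNX2, CDKN1A and PRIM2, were named after their values were seen. Alternatives covered scaling, pseudocount, level limit, fit settings, single libraries, each library left out, DESeq2 1.42.0 and the replicate number as a block. Figures were drawn with matplotlib 3.10.9. DNA and read-level data were not analysed here. The values of 1 gene named by the rule do not appear in the text.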

Additional observations from a re-analysis of the deposited data

How the results depend on the processing

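Over 25 alternatives to the fit of levels, the 6 steps were found in 25, 22, 14, 24, 19 and 22. A step counted as found when it lay within 15 genes of its main position, and where it was not found it has no value. The first stood at 35.26 Mb except at a limit of 1 CPM (35.2, at SCUBE3) and for overexpressing replicate 3 against control replicate 3 (34.9, at ANKS1A). The second stood at 36.2 Mb with a pseudocount of 0.1 CPM, a limit of 10 CPM, 1 stretch fewer, squared deviations, overexpressing replicate 1 or 2 alone and these 2 against the same-numbered control. It stood at 36.0 Mb with a limit of 1 CPM, at least 5 genes a stretch and replicate 3 against control 3, and at 36.4 Mb with a limit of 20 CPM. The third moved to 43.3 Mb for overexpressing replicate 3 alone. In several settings where it was not found, a step down between 43.8 and 44.3 Mb lay outside the 15 genes. The fourth moved to 63.6 Mb with limits of 1, 10 and 20 CPM, 1 stretch fewer, overexpressing replicate 3 alone and replicates 1 and 3 against the same-numbered control, and to 53.5 Mb with 1 stretch more. The fifth moved to 105 Mb with a pseudocount of 0.1 CPM. The sixth moved to 135 Mb (134 with a limit of 20 CPM) with limits of 1 and 10 CPM, 1 stretch fewer, overexpressing replicate 2 alone and replicate 3 against control 3.

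Stretch medians moved with the level limit. The second became 1.80 at 1 CPM and 2.06 at 20 CPM, the fourth 0.52 at 1, 10 and 20 CPM, and the sixth -0.58 at 1 CPM and -0.67 at 20 CPM. With only genes that share no exons, chosen after seeing the data, medians were 0.062, 1.80, 0.49, -0.58 and -0.34 in stretches 1, 2, 4, 6 and 7 as placed with all genes. A new fit to these genes found the first step but not the other 5, with steps at 44.1 and 75.1 Mb in their place. Upward departures numbered 37 at a threshold of 0.58 and 13 at 1.5, and downward ones 13 and 1. Downward ones numbered 4 with 10 neighbours and 4 against the own-stretch median, also chosen after seeing the data.

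Without 1 library at a time, medians of stretches 1 to 7 ranged from -0.018 to 0.050, 2.00 to 2.06, 0.86 to 0.93, 0.53 to 0.58, -0.40 to -0.26, -0.69 to -0.57 and -0.32 to -0.27. Steps ranged from 35.26 to 35.26, 36.1 to 36.2, 42.74 to 42.74 (found in 4 of 6), 57.2 to 63.6, 100.5 to 100.5 and 126 to 135 Mb. Where the third was not found, a drop lay further on, beyond the distance at which steps were matched. It stood at NFKBIE (44.3 Mb, from 0.78 to 0.26) without control replicate 3. Without overexpressing replicate 1 it stood at MRPL14 (44.1 Mb, from 0.75 to 0.41). Upward departures ranged from 19 to 23 and downward ones from 2 to 6, the 6 without overexpressing replicate 1. Genes called higher ranged from 107 to 139 and lower from 103 to 177.

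DESeq2 called 137 higher and 172 lower. With the replicate block, edgeR called 146 higher and 177 lower against 131 and 151 without it. Deviations of same-numbered libraries correlated at -0.03, 0.05 and 0.07, and 4 of 6 libraries correlated best with their own number. These values do not settle whether the numbers pair the samples. Of 91 named genes under 819 alternative values, 56 moved by more than 1 SD. The sign changed in 10 values of 6 genes that were not called (BTN2A1, TUBB, PSMB8, RPS10, USP45 and HACE1), and in 0 values of called genes. Depth limits the genes under 5 CPM in the controls, whose ratios depend on the pseudocount.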

Other observations

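Several long-arm genes named after their values were seen lay well below their own stretch without passing the limit for a departure. IPCEF1, a partner of the guanine exchange factor cytohesin, had 30.5, 29.6 and 23.5 CPM in controls and 11.9, 10.5 and 8.28 CPM in the overexpressing libraries. SYNE1, a nuclear envelope spectrin-repeat protein, had 14.5, 14.2 and 9.67 CPM against 5.07, 5.42 and 4.87 CPM. SGK1, a kinase induced by glucocorticoids, had 19.96, 21.2 and 22.5 CPM against 12.7, 10.3 and 9.69 CPM. In all 3 genes every overexpressing library lay below every control.

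Other genes below the median of the sixth stretch, though less so than FYN, were GTF3C6, a subunit of the RNA polymerase III factor TFIIIC, and QRSL1, which completes glutamine-tRNA in mitochondria. GTF3C6 had 91.5, 86.4 and 109 CPM in controls and 42.5, 37.7 and 45.0 CPM in the overexpressing libraries, a mean ratio of -1.19. QRSL1 had 75.0, 75.8 and 70.5 CPM against 34.4, 31.6 and 34.4 CPM, a mean ratio of -1.13. Both were called lower in the edgeR test.

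In the first stretch ITPR3, an inositol trisphosphate receptor gene before ANKS1A, had 216, 214 and 200 CPM in controls and 127, 126 and 92.3 CPM in the overexpressing libraries. It has exons opposite those of UQCC2. Its mean ratio of -0.88 contrasts with the step up that follows at ZNF76, and the groups did not overlap.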
